A study of Mus musculus with 3 samples.

Results

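The genes described here are 10 members of the piRNA pathway, several of which encode Tudor-domain proteins: Tdrkh, Mael, Tdrd1, Tdrd9, Tdrd12, Mov10l1, Asz1, Piwil2, Fkbp6 and Ddx4. They were chosen by name, with earlier results of these data known, and each was read through the RefSeq accession of its probe. Every member had 1 probe with 1 spot per array, so 10 probes stand among 55647, and 10 genes among 20274 named on the array. All 10 were well above background on at least 1 array, and 7 of them on all 3.

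Gene expression was measured in male mouse embryonic stem cells on 1-colour arrays, with 1 array per genotype. Cells labelled Pcgf6KO+ Pcgf6_flag are Pcgf6KO cells that received Flag-tagged Pcgf6 by lentivirus, Pcgf6KO cells were edited with Cas9, and wildtype cells carry neither change. All 3 cultures were grown with leukemia inhibitory factor and fetal calf serum on mouse embryonic fibroblasts inactivated with mitomycin-C, so feeder RNA can be present. Whether the Pcgf6KO culture is 1 clone, and what promoter drives the Flag-tagged gene, is not stated in the labels. The labels call the cells embryonic stem cells by type, although the word muscle stands in their source name.

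piRNAs are small RNAs that guide PIWI proteins to the transcripts and the DNA of transposons, which are thereby silenced in germ cells. Precursor transcripts are cut at the mitochondrial surface and in perinuclear granules called nuage, and Tudor domains bind the methylated arginines of PIWI proteins and hold the machinery together. Pcgf6 is the defining subunit of the Polycomb complex PRC1.6, which is known to bind promoters of germline genes in embryonic stem cells through MGA with MAX, a pair that recognises the E-box CACGTG, and through E2F6.

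The promoters of these genes are shown because both motifs of PRC1.6 can be looked for in them. RefSeq windows (GRCm38.p6) running from 250 bases before to 50 bases after the annotated transcript start were at hand for 9 of the 10 members; Piwil2 was not matched. The first window listed for each gene was searched for the letters CACGTG, which read the same on both strands, and for the E2F motif GCGGGAA on both strands. The 2 motifs share no bases in any of these windows. In the sequences, matches are in capitals. The first 3 windows are those of Tdrkh and Fkbp6, which showed the widest differences between Pcgf6KO and wildtype among members measured on both arrays, and of Mael.
Tdrkh (chr3:94412994-94413293, plus strand): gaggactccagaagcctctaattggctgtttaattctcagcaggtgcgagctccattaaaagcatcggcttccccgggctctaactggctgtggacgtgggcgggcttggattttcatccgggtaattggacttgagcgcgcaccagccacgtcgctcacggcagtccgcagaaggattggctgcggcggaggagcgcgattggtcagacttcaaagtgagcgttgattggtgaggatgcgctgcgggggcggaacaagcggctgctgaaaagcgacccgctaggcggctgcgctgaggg
Fkbp6 (chr5:135349995-135350294, minus strand): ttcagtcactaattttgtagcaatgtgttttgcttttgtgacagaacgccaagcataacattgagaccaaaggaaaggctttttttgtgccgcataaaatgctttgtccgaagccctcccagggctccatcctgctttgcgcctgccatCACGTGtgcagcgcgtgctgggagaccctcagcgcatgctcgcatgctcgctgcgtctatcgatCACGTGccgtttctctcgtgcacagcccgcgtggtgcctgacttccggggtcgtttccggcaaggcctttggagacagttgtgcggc
Mael (chr1:166238695-166238994, minus strand): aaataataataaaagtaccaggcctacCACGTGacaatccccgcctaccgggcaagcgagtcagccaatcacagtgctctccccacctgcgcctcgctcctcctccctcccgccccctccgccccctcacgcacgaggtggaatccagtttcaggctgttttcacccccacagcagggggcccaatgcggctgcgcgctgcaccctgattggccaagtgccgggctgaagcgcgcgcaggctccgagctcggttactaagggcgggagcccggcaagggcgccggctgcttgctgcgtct
Ddx4 was the member whose window held both spellings, CACGTG and GCGGGAA, and Tdrd12 was the member with a lower signal in Pcgf6KO. Other spellings of either motif were not searched. Their windows follow.
Ddx4 (chr13:112652261-112652560, minus strand): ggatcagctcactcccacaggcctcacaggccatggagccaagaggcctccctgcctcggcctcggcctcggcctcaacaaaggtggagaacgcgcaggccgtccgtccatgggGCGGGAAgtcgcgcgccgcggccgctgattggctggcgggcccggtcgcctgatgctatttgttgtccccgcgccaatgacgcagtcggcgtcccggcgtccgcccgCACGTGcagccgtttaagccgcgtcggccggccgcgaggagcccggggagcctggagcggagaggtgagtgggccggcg
Tdrd12 (chr7:35537666-35537965, minus strand): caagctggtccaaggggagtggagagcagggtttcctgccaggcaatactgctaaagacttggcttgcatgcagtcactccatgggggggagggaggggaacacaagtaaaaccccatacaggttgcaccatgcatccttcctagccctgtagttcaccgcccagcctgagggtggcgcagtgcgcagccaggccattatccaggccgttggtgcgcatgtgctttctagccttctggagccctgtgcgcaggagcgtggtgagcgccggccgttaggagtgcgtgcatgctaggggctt
The remaining E-box matches are shown as shorter stretches of the windows of Tdrd1, Tdrd9, which has 2 matches, and Mov10l1, whose match lies at the far edge of its window.
Tdrd1 (chr19:56826181-56826220, plus strand): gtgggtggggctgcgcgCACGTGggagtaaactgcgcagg
Tdrd9 (chr12:111971377-111971416, plus strand): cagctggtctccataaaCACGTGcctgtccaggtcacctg
Tdrd9 (chr12:111971447-111971486, plus strand): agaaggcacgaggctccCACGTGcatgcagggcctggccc
Mov10l1 (chr15:88982744-88982770, plus strand): ccttCACGTGctaaccgccaacctctc

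CACGTG occurred in the windows of 6 of the 9 members, namely Mael, Tdrd1, Tdrd9, Mov10l1, Fkbp6 and Ddx4, and in 7.24% of the first windows of 27025 genes. The matches started 11 bases before the transcript start in Tdrd1, 29 in Ddx4, 37 and 101 in Fkbp6, 95 and 165 in Tdrd9, 223 in Mael and 246 in Mov10l1. These distances run from the transcript start of the window, which matched the annotated start of the gene only for Mael and Asz1. GCGGGAA occurred in 1 member, Ddx4, where it started 136 bases before the transcript start, and in 4.66% of all first windows. Neither spelling was found in the windows of Tdrkh, Tdrd12 and Asz1. The members' windows held between 10 and 38 CpG dinucleotides with a median of 20, against a median of 7.0 over all genes. Ddx4 had the most, 38, and Tdrd9 the fewest, 10. Both searched spellings contain a CpG, and the shares over all first windows are not matched to the members for CpG content.

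**Figure D1:**
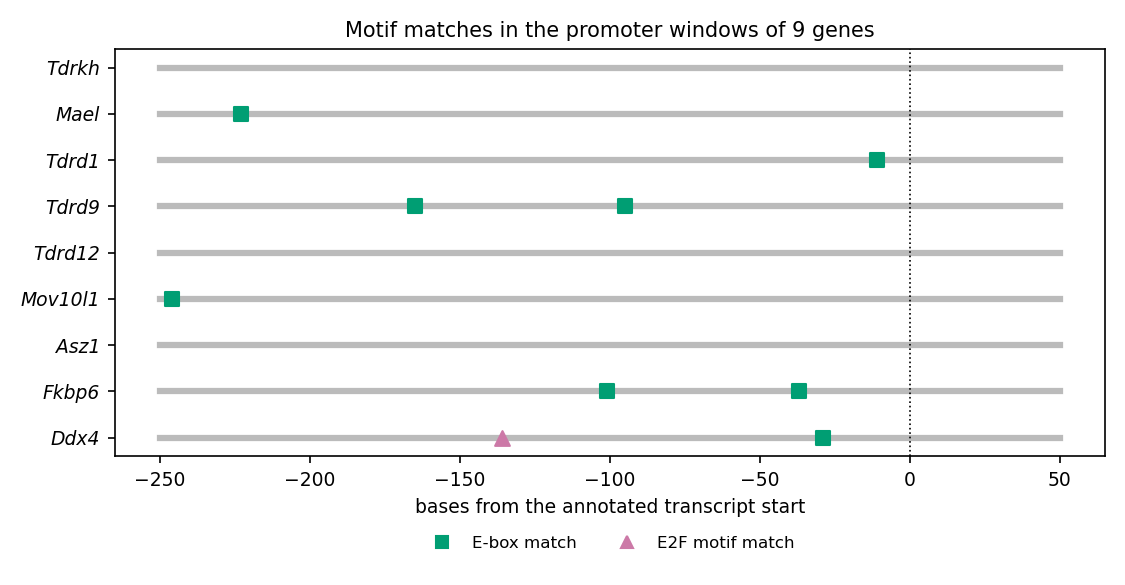
Motif matches in the promoter windows of 9 members, with the distance in bases from the annotated transcript start on the horizontal axis. Squares mark CACGTG and the triangle marks GCGGGAA; 6 members have at least 1 square, and Ddx4 has both marks.

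Levels below are log2 of the processed signal minus the 75th percentile of its array, and differences are in the same log2 units. With 1 array per genotype there is no replicate check and no p-value, so a fixed rule of a 2-fold difference was used. Precision is limited by the number of arrays. Where a gene was not well above background on 1 of the 2 arrays compared, the difference is a bound, written as "at least N-fold". The dim side of a bound is the gene's own signal or, where that is higher, the faintest signal that the array still called well above background. Repeated spots of the same probe give a spread for a difference between single spots. Over all signals it was 0.12 for Pcgf6KO against wildtype and 0.13 for the other comparisons. It was 0.22 for signals under 500 and 0.09 for signals of 500 or more. It comes from spots within the same array, so variation between cultures, RNA extractions, labelling reactions, arrays or slides is not part of that spread. The scanner software's own error was at most 13.2% of the signal for members well above background, except for the 2 spots named with Tdrd1 and Tdrd9. In RNA from a whole culture, fewer cells that express a gene and less of its RNA per cell cannot be told apart.

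The probe of Pcgf6, matched to NM_027654, had a signal of 6202 on the array labelled Pcgf6KO+ Pcgf6_flag (the Flag-labelled array), 7704 in Pcgf6KO and 14333 in wildtype. It was thus 2.04-fold lower in Pcgf6KO than in wildtype and was not higher on the Flag-labelled array. The position of this probe with respect to the Cas9 edit and the Flag construct is not stated, so it checks neither label, and every direction drawn from the third array rests on its label. That array lay on a slide of its own and was scanned apart from the pair, so genotype and slide cannot be told apart in the comparisons that use it. Its faintest signal well above background was 103, against 53.4 in Pcgf6KO and 52.7 in wildtype. Of all probes 60.7% were well above background on the Flag-labelled array, 66.0% in Pcgf6KO and 65.3% in wildtype.

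Pcgf6KO was first set against wildtype, to see which of these genes differ in cells edited at Pcgf6. Of the 10 members 7 were at least 2-fold higher in Pcgf6KO and 0 were at least 2-fold lower, counting bounds. Over all 15859 genes with a difference or a bound, 6.60% were higher and 3.56% lower by this rule. The 8 members measured on both arrays had a median difference of 2.03, and the median of 14997 genes measured on both arrays was -0.03. Asz1 and Tdrd9 were well above background in Pcgf6KO alone, so they entered only through the array in which they were high. Neither could be called lower, and Asz1 is counted among the 7. With these genes left out, 6 of the 8 remaining members passed the rule upwards and 0 downwards. The rule was passed upwards by 868 and downwards by 422 of the 14997 genes.

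The PIWI protein itself is represented by Piwil2, also called MILI, which binds piRNAs and cuts transposon transcripts. Its signal was 6780 on the array labelled Pcgf6KO+ Pcgf6_flag, 19210 in Pcgf6KO and 4790 in wildtype. The Pcgf6KO array stood above the other two, 3.66-fold higher than wildtype (log2 difference 1.87), which placed Piwil2 at rank 191 of 14997 genes ordered from the highest difference. Mov10l1 encodes the RNA helicase that feeds precursor transcripts into primary piRNA processing. It had signals of 289 on the Flag-labelled array, 1452 in Pcgf6KO and 272 in wildtype, so a weak signal in wildtype was 4.87-fold higher in Pcgf6KO, at rank 101.

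Tdrkh and Asz1 encode factors anchored at the mitochondrial surface. Tdrkh is a Tudor protein that brings PIWI proteins to the trimming enzyme for piRNA 3′ ends. Its signal was 477 on the array labelled Pcgf6KO+ Pcgf6_flag, 6253 in Pcgf6KO and 390 in wildtype. Pcgf6KO thus stood far above a pair of similar values, and the difference from wildtype of 3.87, or 14.6-fold, was at rank 11 of 14997. Asz1, which encodes the nuage scaffold GASZ, had signals of 26.0 on the Flag-labelled array, 216 in Pcgf6KO and 12.3 in wildtype. It was well above background in Pcgf6KO alone and at least 3.74-fold higher there than in wildtype. Without the bound the signals differed by 4.0 in log2 units, which sets a signal against one that is not well above background.

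The genes of 3 Tudor-domain proteins of the nuage differed in size and direction. Tdrd1, a scaffold that binds MILI, had a signal of 26.3 on the array labelled Pcgf6KO+ Pcgf6_flag, where it was not well above background, 386 in Pcgf6KO and 98.3 in wildtype. It was 3.58-fold higher in Pcgf6KO than in wildtype, from a wildtype spot whose error, as estimated by the scanner software, was 15.6%. Tdrd9, a helicase with a Tudor domain, had signals of 32.1 on the Flag-labelled array, 70.9 in Pcgf6KO and 12.2 in wildtype. The Pcgf6KO spot was the only one well above background, with a scanner error of 20.5%, and the bound against wildtype was at least 1.23-fold, short of the 2-fold rule. Without the bound the measured difference was 2.41, which passes that rule but sets a signal against one that is not above background.

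Tdrd12, a Tudor-domain helicase needed for secondary piRNAs, differed from the rest. It had signals of 20158 on the array labelled Pcgf6KO+ Pcgf6_flag, 10602 in Pcgf6KO and 14815 in wildtype. Its difference between Pcgf6KO and wildtype was -0.62, that is 1.53-fold lower, which did not reach 2-fold and was at rank 1036 of 14997 from the lowest. It was 4.95 times the spread of repeated spots over all signals, 0.12, and that spread was 0.09 for signals of 500 or more.

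Among the other nuage factors, Fkbp6, a co-chaperone that works with HSP90 in loading piRNAs, had signals of 541 on the Flag-labelled array, 3150 in Pcgf6KO and 449 in wildtype. It was 6.40-fold higher in Pcgf6KO than in wildtype, at rank 54. Mael, the maelstrom protein required for transposon silencing in the male germ line, had signals of 6844 on the array labelled Pcgf6KO+ Pcgf6_flag, 37222 in Pcgf6KO and 7443 in wildtype. It was already well above background in wildtype and 4.56-fold higher in Pcgf6KO, at rank 123. Ddx4, the germ cell helicase known as VASA that takes part in piRNA amplification, had signals of 8360 on the Flag-labelled array, 16309 in Pcgf6KO and 7898 in wildtype. Its Pcgf6KO value was the highest of the 3, but the difference from wildtype of 0.91, or 1.88-fold, stayed under 2-fold at rank 1006.

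**Figure D2:**
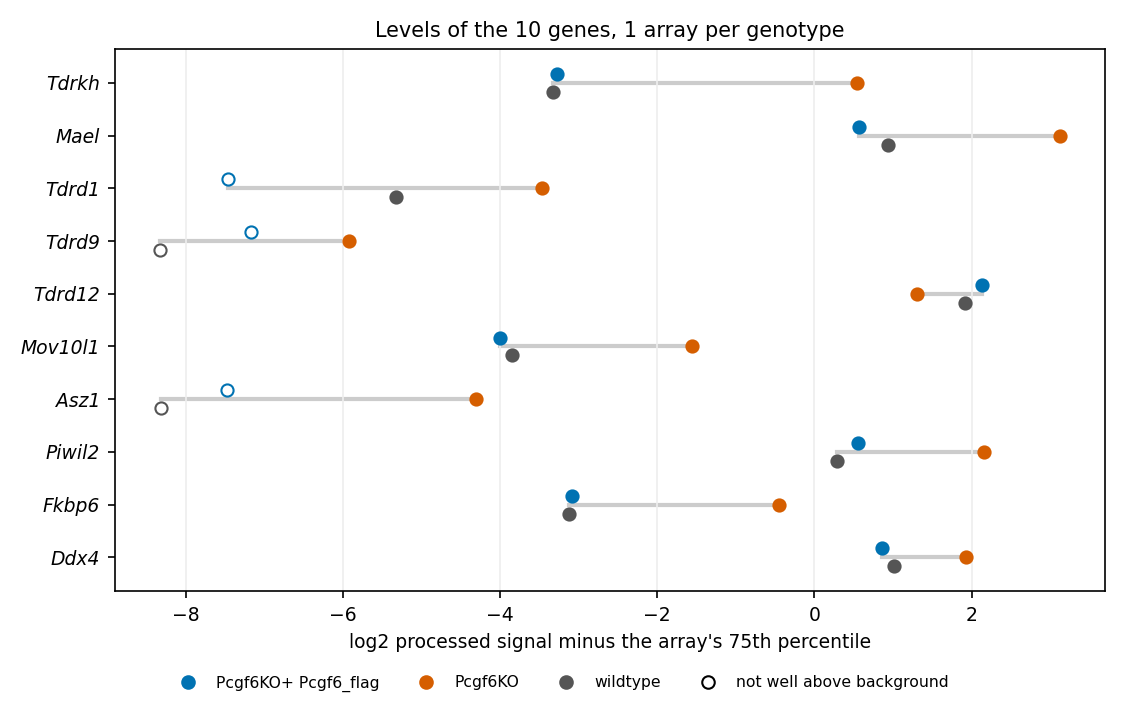
Scaled log2 level of each of the 10 genes on the 3 arrays (1 array per genotype); filled points were well above background and open points were not. In 9 genes the Pcgf6KO point lies farthest to the right, and in Tdrd12 it lies farthest to the left.

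The second comparison sets the array labelled Pcgf6KO+ Pcgf6_flag against Pcgf6KO. Both this comparison and the first contain the Pcgf6KO array, so their values are given side by side and not as independent evidence. Of the 9 members with a difference or a bound, 8 were at least 2-fold lower on the Flag-labelled array and 0 at least 2-fold higher. Asz1 and Tdrd1 are counted here although, not being well above background on the Flag-labelled array, they could only be lower. Over 15323 genes with a difference or a bound, 10.3% were lower and 6.35% higher by this rule. The 7 members measured on both arrays had a median difference of -2.43, against 0.03 over 14241 genes. Among these 7 members 6 were at least 2-fold lower and 0 higher, against 1191 and 773 of the 14241 genes.

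Tdrkh was 14.1-fold lower than in Pcgf6KO (log2 difference -3.82), at rank 12 of 14241 genes from the lowest. Fkbp6 was 6.27-fold lower, at rank 114 from the lowest, and Mael 5.85-fold lower, at rank 142. Mov10l1 was 5.40-fold lower and Piwil2 3.05-fold lower. Ddx4 passed the rule narrowly here, 2.10-fold lower with a difference of -1.07. Among members measured on both arrays Tdrkh thus had the widest difference in both comparisons; bounds, such as those of Asz1 and Tdrd1, have no place in that order.

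For the dim members the Flag-labelled array gives bounds alone. Tdrd1 was at least 4.03-fold lower than in Pcgf6KO (log2 bound -2.01), a bound that shrank to -1.24 after normexp background correction. Asz1 was at least 2.26-fold lower (log2 bound -1.18), and this call was lost after normexp correction, where the bound was -0.98. Tdrd9 gave no fold, because its Pcgf6KO signal lay under the faintest signal called well above background on the Flag-labelled array. Tdrd12 was again the exception, 1.77-fold higher with a difference of 0.82, which did not reach 2-fold.

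The third comparison sets the array labelled Pcgf6KO+ Pcgf6_flag against wildtype. Of the 8 members with a difference or a bound, 0 were at least 2-fold higher and 0 lower. Tdrd1 is counted among them, although its bound could not reach 2-fold from so dim a wildtype signal. Over 15201 genes 5.98% were higher and 6.44% lower by the rule. Counts of 0 among so few genes lie near the background, and no contrast is read from them. The 7 members measured on both arrays ranged from -0.36 for Mael to 0.26 for Piwil2, with a median of 0.03. Tdrkh and Fkbp6 differed by 0.05 and 0.03, values whose sign turned under quantile normalization and under scaling to the median. Mov10l1 differed by -0.15, Ddx4 by -0.16 and Tdrd12 by 0.21. The difference of Mael was 2.80 times the spread of repeated spots over all signals and that of Piwil2 2.06 times. For signals of 500 or more, as in both genes, that spread was 0.09 and not 0.13.

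Tdrd1 was well above background in wildtype but not on the Flag-labelled array, which gave a bound of at least 1.12-fold lower; the faintest signal well above background on that array, 103, was close to the wildtype signal of 98.3. Without the filter on dim spots its measured difference from wildtype was -2.14. Asz1 and Tdrd9 were not well above background on either array. The number of members well above background was 7 on the Flag-labelled array, 10 in Pcgf6KO and 8 in wildtype.

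**Figure D3:**
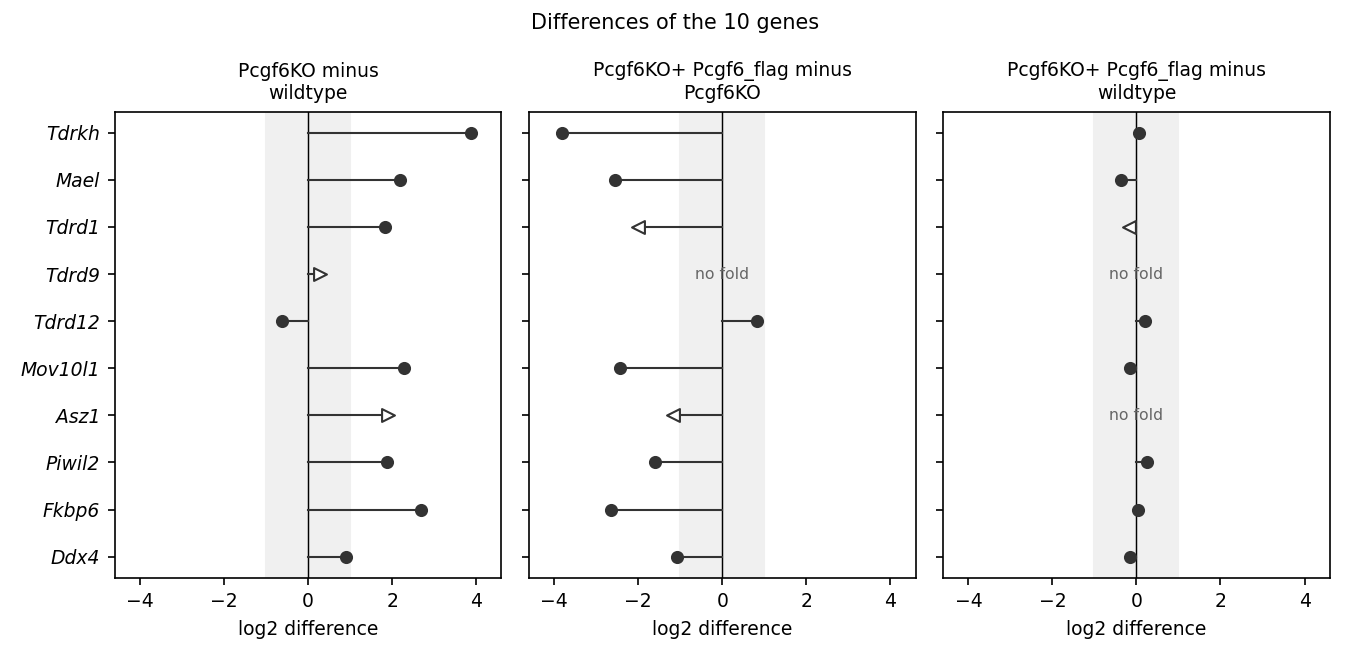
Log2 difference of each of the 10 genes in the 3 comparisons; filled circles are measured on both arrays, open triangles are bounds, and the grey band marks differences under 2-fold. Tdrkh reaches 3.87 and -3.82 in the comparisons with Pcgf6KO, and all values against wildtype of the Flag-labelled array lie in the band.

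**Figure D4:**
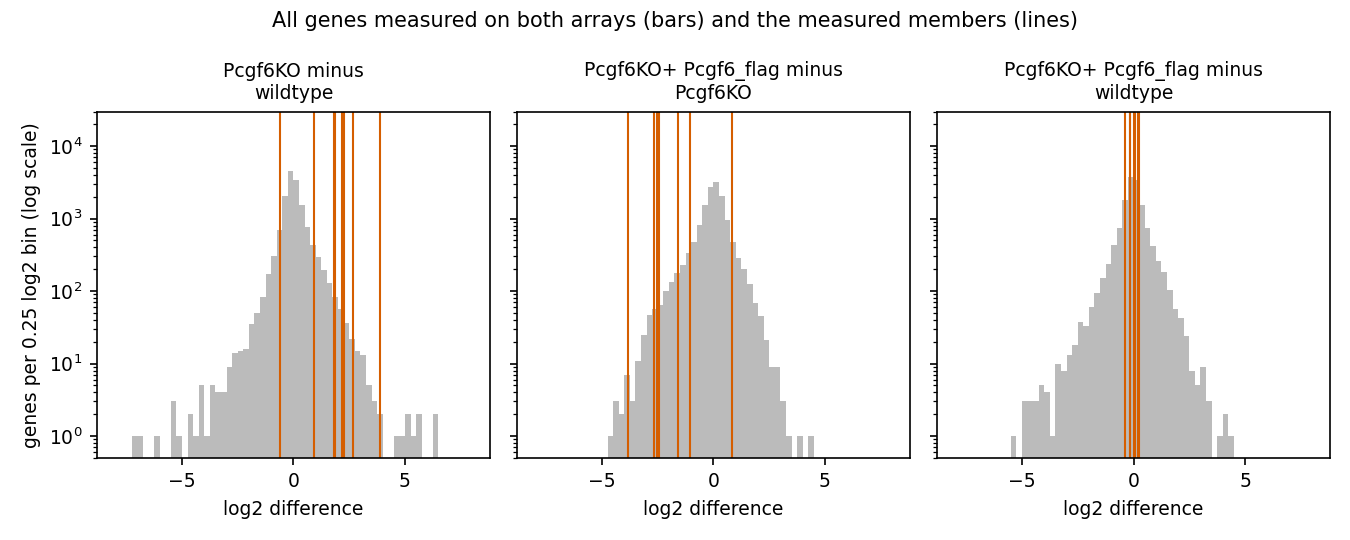
Number of genes (log scale) by log2 difference in bins of 0.25 for all genes measured on both arrays, with the measured members as vertical lines. The members lie mostly to the right in the first panel and to the left in the second, and between -0.36 and 0.26 in the third.

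Other genes of the pathway were taken from a list of 24 symbols, of which 20 were on the array and all 20 were well above background on at least 1 array. In Pcgf6KO against wildtype 6 of the 20 were at least 2-fold higher and 1 was at least 2-fold lower, beside the 6.60% and 3.56% of all genes given above. Piwil1, well above background in Pcgf6KO alone, is counted although it could only be higher here and lower in the second comparison. Of the 18 measured on both arrays 5 were higher and 1 lower, against 868 and 422 of 14997 genes, and their median was 0.55. On the array labelled Pcgf6KO+ Pcgf6_flag 5 were at least 2-fold lower than in Pcgf6KO and 0 higher, against 10.3% and 6.35% of all genes. The 17 measured on both arrays had a median of -0.10, and 4 of them were lower and 0 higher, against 1191 and 773 of 14241 genes. Against wildtype 0 were at least 2-fold higher and 0 lower on that array, beside 5.98% and 6.44% of all genes. With 17 genes measured on both arrays, no contrast is read from these counts.

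Gpat2, which encodes a mitochondrial protein that binds MILI, had signals of 2665 on the array labelled Pcgf6KO+ Pcgf6_flag, 7097 in Pcgf6KO and 1199 in wildtype. Its difference between Pcgf6KO and wildtype was 2.43, and that between the Flag-labelled array and Pcgf6KO was -1.52. Henmt1, the methyltransferase that protects piRNA 3′ ends, had signals of 154 on the Flag-labelled array, 1280 in Pcgf6KO and 254 in wildtype. Its differences were 2.20 for Pcgf6KO against wildtype and -3.16 for the Flag-labelled array against Pcgf6KO, and its second probe gave 2.11 and -3.34, the last from a spot not well above background. Stk31, a germ cell protein with a Tudor and a kinase domain, differed by 1.62 and -2.03 in the same comparisons. Piwil1, the PIWI protein MIWI of later spermatogenesis, was well above background in Pcgf6KO alone, with bounds of 1.94 and -1.21.

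Tex19.2 was higher by 1.27 in Pcgf6KO than in wildtype and differed by -0.99 on the Flag-labelled array from Pcgf6KO. Exd1, which takes part in piRNA biogenesis, differed by 1.03 and -0.07, so its Flag-labelled value stayed near that of Pcgf6KO. Rnf17, a Tudor-domain protein of male germ cells, differed by 0.63 and passed the rule only in the second comparison with -1.14. Morc1, an ATPase needed for transposon silencing in the male germ line, was the 1 lower gene, with signals of 46737 on the Flag-labelled array, 25503 in Pcgf6KO and 51239 in wildtype, a difference of -1.14 for Pcgf6KO against wildtype and 0.77 for the Flag-labelled array against Pcgf6KO. Pnldc1, the trimming enzyme that works with Tdrkh, differed by -0.82 and 0.88, and Pld6, the mitochondrial endonuclease of the pathway, by 0.32 and 0.15. Tdrd5 and Tdrd7, further Tudor-domain genes of the nuage, differed by 0.50 and 0.43 in Pcgf6KO against wildtype. Dnmt3l, the cofactor of transposon methylation, had a bright signal throughout and differed by -0.29.

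**Figure D5:**
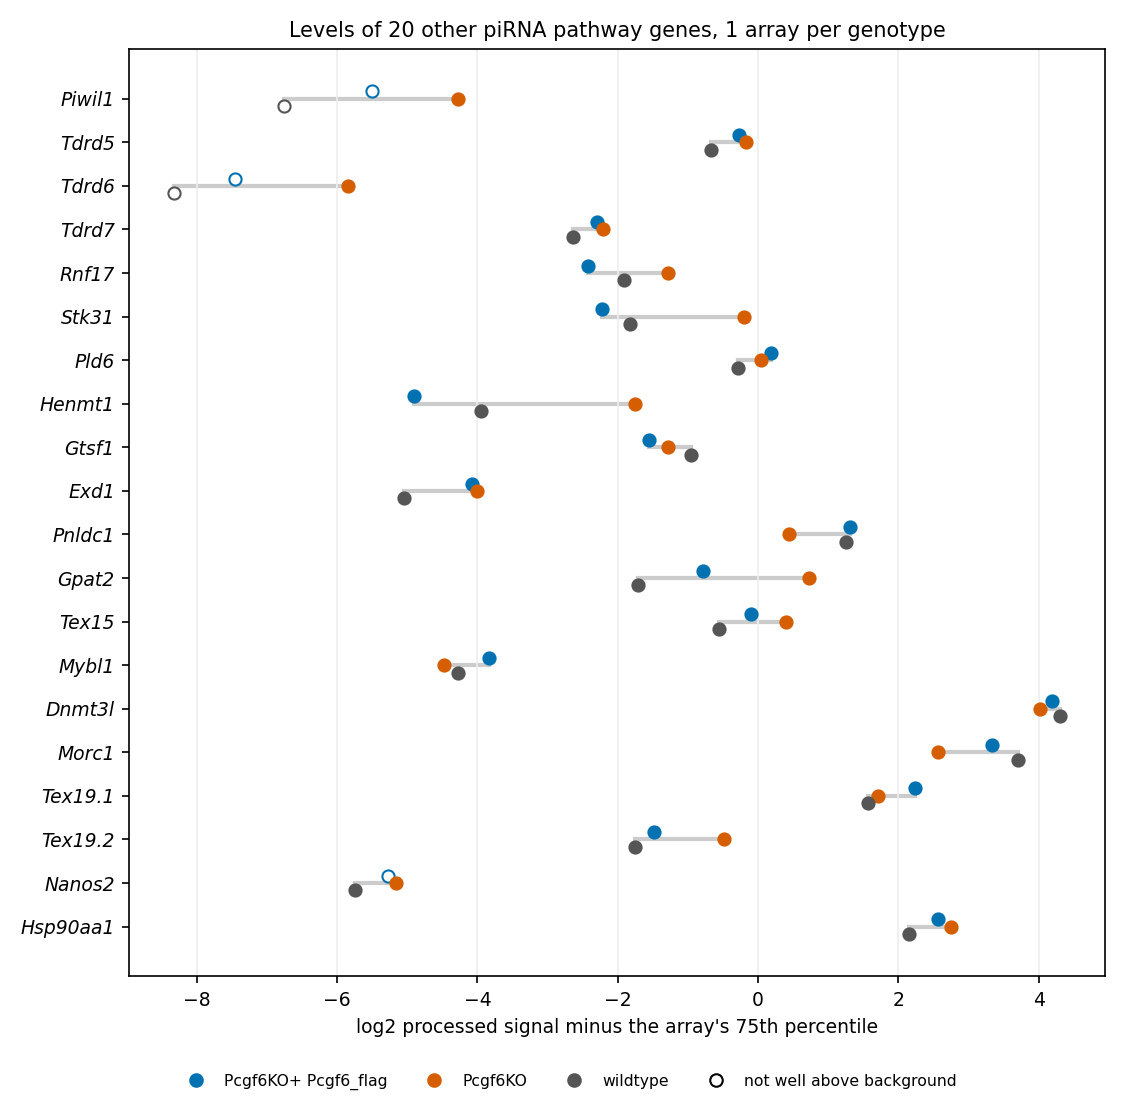
Scaled log2 level of the 20 other piRNA pathway genes on the 3 arrays (1 array per genotype), with open points where a gene was not well above background. Gpat2, Henmt1 and Stk31 have their Pcgf6KO point well to the right of both others, Morc1 has it to the left, and Exd1 has the Flag-labelled point beside that of Pcgf6KO.

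Tudor-domain genes used in all cells were set beside the members. None of 5 (Tdrd3, Snd1, Akap1, Smn1 and Smndc1) was at least 2-fold different in any comparison, 0 higher and 0 lower, and for Pcgf6KO against wildtype they lay between -0.24 for Smn1 and 0.20 for Akap1. With 6.60% of all genes higher and 3.56% lower in that comparison, counts of 0 among so few genes lie near the background, and no contrast with the members is read from them. The microRNA pathway, which uses the Argonaute relatives of the PIWI proteins, likewise gave 0 of 9 genes at least 2-fold different in that comparison, with a median of -0.10. Its list included Mov10, the relative of Mov10l1, which differed by -0.86 and was the 1 gene of the list that passed the rule in the second comparison, with 1.20 for the Flag-labelled array against Pcgf6KO. Ago2 differed by -0.14 there on its brighter probe and by 1.56 on its other probe, so the probes disagreed.

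All 12 embryonic stem cell markers were well above background on all 3 arrays, with summed scaled signals of 146 on the Flag-labelled array, 129 in Pcgf6KO and 143 in wildtype. Of 13 feeder fibroblast markers on the array, 8 were well above background on the Flag-labelled array with a sum of 3.66, 10 in Pcgf6KO with a sum of 10.2, and 12 in wildtype with a sum of 31.1. The fibroblast markers Prrx1 and Postn were well above background in wildtype alone, and Lum on none. Muscle markers had sums of 6.05 on the Flag-labelled array, 10.3 in Pcgf6KO and 6.96 in wildtype, with 7, 8 and 8 of 14 detected on these arrays. Myod1 was among those detected, while Myog, Myf5, Pax7, Ckm and Myh1 were detected on none. Of 14 germ cell markers 11 were detected on each array, with sums of 10.5 on the Flag-labelled array, 14.2 in Pcgf6KO and 9.42 in wildtype, while Bmp15, Prm1 and Tnp1 were detected on none. In Pcgf6KO 4 germ cell markers were at least 2-fold higher than in wildtype, namely Sohlh2 by 2.45, Figla by 2.23, Nobox by 1.52 and Sohlh1 by 1.1, and 0 were lower, against 6.60% and 3.56% of all genes. On the Flag-labelled array 4 were at least 2-fold lower than in Pcgf6KO, with differences of -3.41 for Figla, -2.40 for Sohlh2, -2.05 for Nobox and -1.01 for Dmrt1, and 1 was higher, Gdf9 with 1.12, against 10.3% and 6.35% of all genes. Against wildtype 1 was lower on that array, Figla with -1.18, and 0 were higher, against 6.44% and 5.98% of all genes. Among muscle markers 2 were at least 2-fold higher and 1 lower in Pcgf6KO than in wildtype, against 6.60% and 3.56% of all genes. In the second comparison 3 were lower and 0 higher, against 10.3% and 6.35%. Of the 13 fibroblast markers 9 were at least 2-fold lower and 0 higher in Pcgf6KO than in wildtype, bounds included, against 3.56% and 6.60%. On the Flag-labelled array 7 were lower and 0 higher than in Pcgf6KO, against 10.3% and 6.35%. Against wildtype 12 were lower and 0 higher on that array, against 6.44% and 5.98%. The fibroblast sum moved in the opposite direction to the members in Pcgf6KO against wildtype and in the same direction in the second comparison. The muscle and germ cell sums moved in the members' direction in both, and the embryonic stem cell sum in the opposite direction. The part of these cell types in the members' differences was not tested.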

How the data were processed

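Each array held 62976 spots. Per the file headers, the deposited values are spot intensities on a linear scale from Agilent Feature Extraction 11.5.1.1, background-subtracted per spot; the submitters' processing notes name version 10.7. The deposited value table held the same processed intensity for 55249 of 55249 single-spot probes on each array (relative tolerance 1e-06). The array design is annotated on mm9.

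Control spots and outlier spots (192 for Pcgf6KO+ Pcgf6_flag, 158 for Pcgf6KO and 141 for wildtype) were left out, 0 spots were saturated, and repeated spots were averaged. Signals were scaled to each array's 75th percentile (4616 for Pcgf6KO+ Pcgf6_flag, 4293 for Pcgf6KO and 3915 for wildtype). Of 55647 probes with a kept spot on each array, 26746 were named by matching their unversioned accessions to the RefSeq annotation of GRCm38.p6. Where a gene had several probes, the brightest one that was well above background on at least 1 array was used. Background shares count genes with a difference or a bound. This denominator was chosen after the shares were seen; over genes well above background on either array no share was lower by more than 0.28 percentage points. The members, lists and rules were chosen with earlier results of these data known. The text names the 10 members, Pcgf6, and listed genes that passed 2-fold plus up to 6 others per list. Tools were Python 3.11.15, pandas 2.3.3, numpy 2.4.6, matplotlib 3.10.9, R 4.3.3 and limma 3.58.1.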

Additional observations from a re-analysis of the deposited data

How the results depend on the processing

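Of 30 alternative counts of members past the threshold, 9 come from 3 settings that leave the members' values as they are (the deposited value table, the mean over probes, and outlier spots kept) and say nothing about stability. The other 21 counts come from 5 settings and thresholds of 1.5-fold and 3-fold. Among them the 3-fold count for the Flag-labelled array against wildtype could only be 0, because the 2-fold count was 0. Scaling to the median, or to probes measured on all arrays, shifts every member alike within a comparison. Of the 21 counts 20 stayed within 1.5 times the reported count. The exception was the Flag-labelled array against wildtype without a filter on dim probes, where 2 members passed, Tdrd9 with 1.16 and Tdrd1 with -2.14, in place of 0; in both cases a spot not well above background enters the difference. The median difference of the members, bounds included, lay between 1.64 and 2.24 for Pcgf6KO against wildtype, between -2.49 and -1.38 for the Flag-labelled array against Pcgf6KO, and between -0.19 and 0.04 for that array against wildtype. Scaling to the median moved the median of all genes in the last comparison to -0.14, and no filter on dim probes moved it to 0.11 in the second. A fit with slide as a block was not run: the Flag-labelled array is alone on its slide. No paired analysis was possible because each group has 1 array. Signal over background limits Asz1, Tdrd1 and Tdrd9, whose differences on the Flag-labelled array are bounds or have no fold.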

Other observations

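Leaving out the members themselves and predicted genes, of 7806 named genes that were measured on all 3 arrays and no dimmer than the median gene, the 6 whose differences from wildtype lay nearest to those of Tdrkh were Sohlh2, Hsf5, Krt19, Stmn4, Ltb and Meioc, over 3 arrays. Sohlh2, a transcription factor of early germ cells, was the nearest at a distance of 1.42 log2 units, with 2.45 for Pcgf6KO against wildtype and 0.05 for the Flag-labelled array against wildtype. Hsf5, a heat shock factor of spermatocytes, gave 2.26 and -0.11, and Meioc, a meiosis gene, gave 1.88 and 0.42. Krt19, a keratin of epithelia, gave 2.04 and 0.29, Stmn4, a neuronal stathmin, 2.02 and -0.45, and the lymphotoxin gene Ltb 1.89 and -0.06.

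The letters CACGTG, found in the windows of 6 of 9 members, were also set against the calls over all genes. Of 1217 measured genes with CACGTG in the first promoter window, 6.90% were at least 2-fold higher in Pcgf6KO than in wildtype and 2.47% at least 2-fold lower. Of 11383 genes without it, the shares were 6.46% and 3.42%. Both shares describe these arrays only, and nothing about binding was measured.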
